A study of Mus musculus with 2 samples.

Results

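The cytosolic ribosomal protein genes were taken from 2 bulk RNA-seq libraries of Tregs as the symbols that begin with Rpl or Rps and a number, with at most a closing a, x or l and a digit, together with Rpsa, Rplp0, Rplp1 and Rplp2. Names of pseudogenes and of the ribosomal S6 kinases were left out. The rule gave 84 of the 24346 symbols that both libraries list, 51 of the large subunit and 33 of the small subunit. Of these, 77 encode proteins of the standard ribosome, 46 in the large and 31 in the small subunit, and 7 are named as relatives of a standard gene (Rpl3l, Rpl7l1, Rpl10l, Rpl22l1, Rpl39l, Rps4l and Rps27l).

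Both libraries came from FDG mice 10 to 16 weeks old, in which the endogenous Foxp3 locus drives GFP and the diphtheria toxin receptor, so that GFP marks cells that transcribe the Treg factor Foxp3. All mice had received 50 μg of intratracheal bleomycin (BLM), a drug that injures the lung and leads to fibrosis. On day 15, GFP+CD4+ cells were isolated by sorting from both spleen and lung, and each tissue gave 1 library from a pool of 3 mice. No library of untreated mice was analysed here, so the comparison is between tissues of BLM-treated mice. Since each tissue has 1 library, the differences below have no replicates behind them and carry no p-value.

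The ribosome translates mRNA in the cytosol, with a small subunit that reads the codons and a large subunit that joins amino acids. Each ribosome holds about equal numbers of its proteins, and proliferating and activated T cells devote a large part of their transcription and translation to making them. Many ribosomal protein mRNAs begin with a C followed by a run of pyrimidines, through which mTOR and Larp1 control their translation, and mammalian genomes hold many processed copies of these genes, made by reverse transcription of the spliced mRNA.

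The values are FPKM, fragment numbers per unit of transcript length and of library size, as the authors computed them. They summed to 599633 in splenic and 808853 in lung Tregs. The reads were not counted in the files, but the steps of the low values gave about 9648700 and 12634500 reads over the 23016 symbols with a known transcript length. All 4 T cell markers listed were present in both libraries and at or below the splenic level in lung (Cd3e 513 FPKM in spleen and 369 in lung, Lck 823 and 654, Cd4 195 and 179, Cd3d 469 and 468). Of the Treg markers, Foxp3 (18.7 and 41.8) and Ctla4 (221 and 601) were higher in lung, Ikzf2 was at 42.0 and 41.6, and Il2ra was lower (89.4 and 59.1). Markers of other cells were present as well. All 8 macrophage markers were above 0 in both libraries and higher in lung, 5 of them over 2-fold, and their summed level was 657 FPKM in spleen and 26084 in lung, mainly Lyz2 (376 and 24947). The 4 neutrophil markers summed to 420 and 1192 FPKM and the 4 B cell markers to 238 and 123, with none at 0. The 4 epithelial markers summed to 10.3 and 3122 FPKM, mainly Scgb1a1 (1.48 and 3021), with Sftpc listed at 0 in spleen and Epcam lower in lung (8.75 and 1.79), and the 4 fibroblast markers to 0.290 and 46.3, with Col3a1 listed at 0 in spleen. The part of these cells in the ribosomal protein values was not tested, and in such bulk libraries fewer cells of a type and less RNA per cell cannot be told apart.

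All 77 standard ribosomal protein genes had a higher FPKM in lung than in splenic Tregs, by a small and even amount. Their median log2 ratio of lung to spleen was 0.39, or 1.31-fold, with an interquartile range of 0.22 and extremes of 0.024 (Rpl4) and 1.60 (Rps27). Of the 81 members that reached 1 FPKM in either library, 80 were higher in lung, against 51.5% of the 12094 genes tested by that minimum. Over 2-fold higher values were found for 3 of the 81 members, Rps27, Rps27l and Rps4l, against 17.8% of all tested genes, and 0 were over 2-fold lower, against 15.5%.

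The shift itself was not particular to ribosomal protein genes. Among the 1106 genes with a mean of at least 100 FPKM, 75.1% were higher in lung, 14.1% over 2-fold, and 2.71% were over 2-fold lower. Without the members, the 1031 such genes had a median log2 ratio of 0.35, close to that of the members, but an interquartile range of 0.78. In this group 35.6% of genes lay within 0.25 of their own median on the log2 scale, and 66 of the 77 standard ribosomal protein genes (85.7%) did so. The group was not matched to the levels of the standard genes, which had medians of 893 FPKM in spleen and 1128 in lung. It also holds markers of other cells, such as Lyz2 and Scgb1a1. The order of levels was also much the same in both tissues, with a Spearman rho of 0.98 across the 77 genes, which share the same 2 libraries.

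The direction depended on the scale. Summed FPKM was 1.35 times as high in lung, and when each library was rescaled to a sum of 1000000 (TPM) every log2 ratio fell by 0.43. The members' median was then -0.043, and 51 of the 81 were lower in lung, beside 67.3% of all tested genes and 56.3% of those with a mean of at least 100 FPKM. In shares of the library, the members took 13.6% of summed FPKM in spleen and 13.3% in lung, and 38 and 36 of them respectively were among the 100 highest rows. Their share of the estimated reads, which are not divided by length, was 5.49% and 6.08%, so that it was higher in lung, and without the 100 highest other rows the share of summed FPKM was also higher in lung (18.2% and 19.6%). A higher output of ribosomal protein mRNA in lung Tregs therefore could not be told apart from the scaling, whereas the narrow spread of the ratios is the same on both scales.

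**Figure D1:**
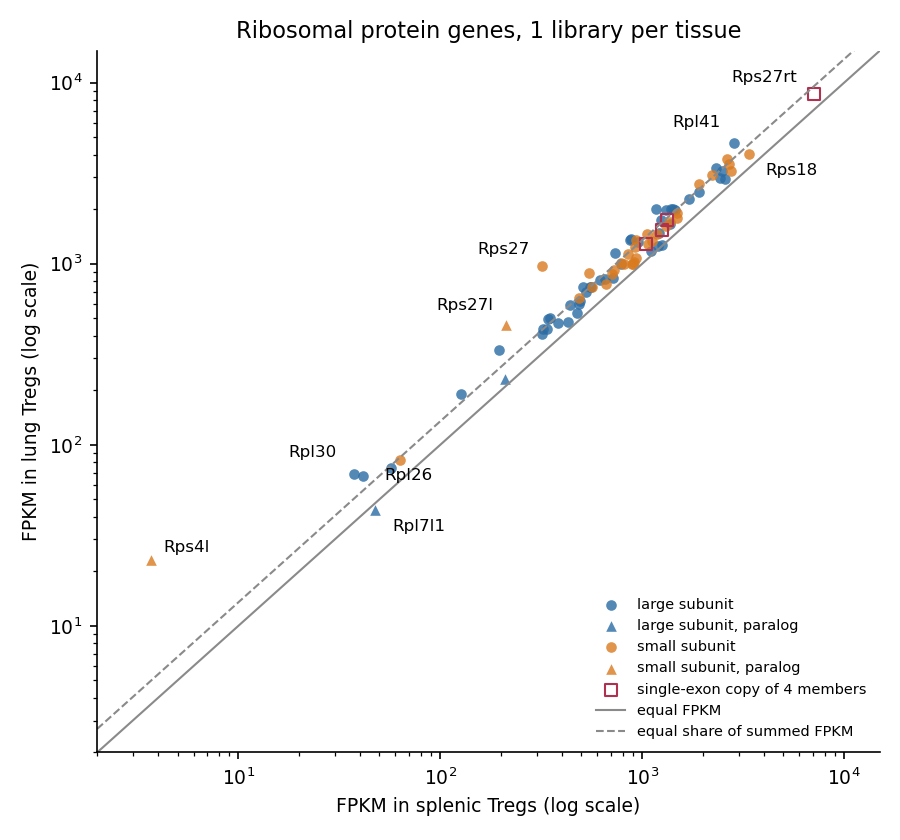
FPKM of the 81 tested ribosomal protein genes in splenic (x axis) and lung Tregs (y axis), both on log scales, with circles for standard genes, triangles for paralogs and open squares for single-exon copies of 4 members. Nearly all points lie between the line of equal FPKM and just above the dashed line of equal share of summed FPKM, and 30 of the 81 lie above both lines, with Rps27, Rps27l and Rps4l the farthest.

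Levels of the standard genes ran from 37.2 to 3376 FPKM in spleen, with a median of 893, and from 67.4 to 4615 in lung, with a median of 1128. Among the highest in spleen were Rps18 (3376 FPKM), Rpl41 (2832), Rps19 (2757) and Rps29 (2629), and in lung Rpl41 (4615), Rps18 (4026), Rps29 (3805) and Rpl37a (3392). Rpl41 encodes the smallest ribosomal protein, a peptide of the subunit interface, Rps19 is the gene most often mutated in Diamond-Blackfan anaemia, and Rps29 and Rpl37a encode small zinc-binding proteins. FPKM of such short transcripts depend strongly on the fragment length assumed in their calculation, so the order of levels between genes is less certain than the ratio of one gene between libraries.

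The lowest standard levels in spleen belonged to Rpl30 (37.2 FPKM), Rpl26 (41.7), Rpl22 (56.8), Rps15a (63.3) and Rpl34 (127), and the same 5 genes were lowest in lung. Of these, Rpl26, Rpl30 and Rpl34, and also Rps27, have a near-identical single-exon copy elsewhere in the genome that was listed far above the gene itself. These copies matter for how each gene's row can be read, so the sequences that tell gene and copy apart are shown here for Rpl26 and Rpl34. Each pair is a stretch of 75 bases of coding sequence, the length of a read, around the first base that differs, with that base in capitals. Sequences and positions are those of GENCODE M21 (GRCm38, the same assembly as mm10).

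For Rpl26 (chr11:68901583-68906989, plus strand, 4 exons) and the processed pseudogene Gm15772 (chr5:3236431-3236868, plus strand), the stretch covers bases 140 to 214, counted from 1 at the A of the start codon.
Rpl26: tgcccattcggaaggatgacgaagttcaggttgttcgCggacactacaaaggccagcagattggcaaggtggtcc
Gm15772: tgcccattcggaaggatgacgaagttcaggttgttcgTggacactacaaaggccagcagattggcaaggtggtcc
For Rpl34 (chr3:130726831-130730398, minus strand, 5 exons) and the processed pseudogene Rpl34-ps1 (chr6:71124610-71124963, plus strand), the stretch covers bases 95 to 169.
Rpl34: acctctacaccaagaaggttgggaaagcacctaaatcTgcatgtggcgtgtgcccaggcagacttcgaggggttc
Rpl34-ps1: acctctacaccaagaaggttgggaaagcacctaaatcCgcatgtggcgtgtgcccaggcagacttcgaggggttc

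Over the whole coding sequence Rpl26 and Gm15772 differed at 2 of 438 bases (C177T and T288C, the gene's base first), Rpl30 and its copy, the processed pseudogene Gm12191, at 1 of 348, and Rpl34 and Rpl34-ps1 at 2 of 354 (T132C and C318G). Of the 75-base windows of each coding sequence, 214 of 364 in Rpl26, 199 of 274 in Rpl30 and 168 of 280 in Rpl34 were identical in the copy. Rps27 (chr3:90212522-90213651, minus strand, 4 exons) and Rps27rt (chr9:114982366-114982739, minus strand, 1 exon, annotated as protein-coding) had the same 255 coding bases, and also did not differ in the 32 bases before and the 54 bases after them that could be compared. All 181 windows of Rps27 were therefore present in Rps27rt.

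Rps27, whose product is a zinc-finger protein of the small subunit, had 320.0 FPKM in spleen and 970 in lung, or 3.03-fold higher, the widest ratio of any standard gene. Rps27rt was at 7059 and 8612 FPKM, above every member in either library, and 1.22-fold higher in lung. Gene and copy together were at 7379 and 9582 FPKM, or 1.30-fold higher, next to the members' median of 1.31-fold. The gene's part of that sum was 4.34% in spleen and 10.1% in lung. Because the 2 rows hold the same sequence, how reads were divided between them cannot be read from the values.

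The other 3 genes had the same arrangement. Rpl30, a protein of the subunit interface, had 37.2 FPKM in spleen and 69.4 in lung, beside 1248 and 1536 for Gm12191. The ratio was 1.87-fold for the gene alone and 1.25-fold for the sum. Rpl26, a large-subunit protein that also binds p53 mRNA, was at 41.7 and 67.4 FPKM, beside 1043 and 1280 for Gm15772. Its ratio was 1.62-fold alone and 1.24-fold for the sum. Rpl34 was at 127 and 190.0 FPKM, beside 1327 and 1735 for Rpl34-ps1, with a ratio of 1.49-fold alone and 1.32-fold for the sum. In each of the 4 pairs the gene alone had a wider ratio than its copy and than the sum, as the plot of genes, copies and sums shows.

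**Figure D2:**
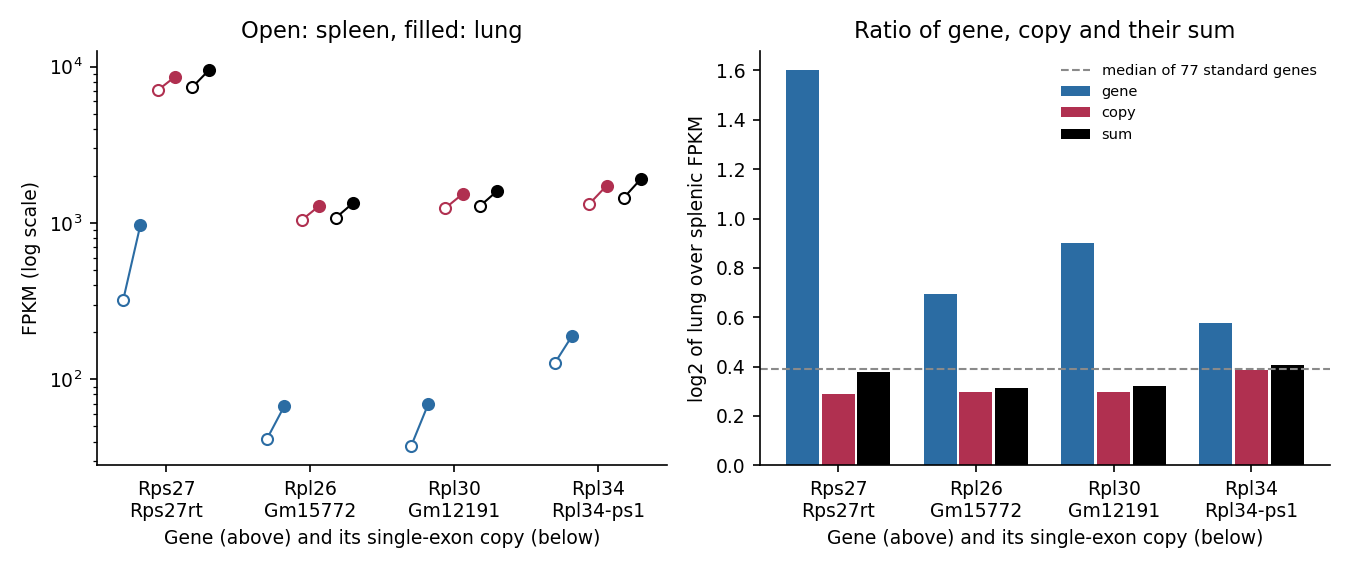
FPKM (left, log scale, open circles for spleen and filled circles for lung) and log2 ratio of lung to spleen (right) of 4 ribosomal protein genes, their single-exon copies and the sum of both, with 1 library per tissue. The copies lie well above the genes, and the ratios of the sums (0.31 to 0.41 on the log2 scale) lie near the median of the standard genes (0.39, dashed line).

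Copies of this kind were looked for in every member. Of the 77 standard genes, 59 had every 75-base window of the coding sequence also in another annotated gene with at most 2 mismatches, 24 of them exactly, and the median number of other genes that shared a window was 11. The most were 130, for Rpl7a. No shared window was found for 1 gene. Copies that shared 90% or more of a member's windows and had a row of their own were found for 10 members, but outside the 4 pairs above they added little, the most for Rps15a, whose own row held 88.6% of the sum in spleen and 91.3% in lung. When these copies were added to their genes, a step chosen after the values had been seen, the median log2 ratio of the 77 genes was 0.38, the SD over genes went from 0.22 to 0.16, and the widest ratio was that of Rpl38 (1.70-fold) in place of Rps27. All 77 remained higher in lung on the FPKM scale.

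The genes next to the members' median show the common pattern. Rpl32, at the median, had 2481 FPKM in spleen and 3248 in lung. Rpl13a, a protein that can leave the ribosome to repress translation in interferon-treated cells, was at 528 and 694 FPKM (1.31-fold), and Rpl24 at 621 and 811 (1.31-fold). Rpl22, which αβ T cells need for their development, was at 56.8 and 74.5 FPKM (1.31-fold). They were picked for their place next to the median, and they include both abundant and scarce members.

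In the large subunit the median log2 ratio was 0.41 over 46 genes and in the small subunit 0.35 over 31 genes. The highest ratios of the large subunit belonged to Rpl30, described above, and to Rpl38, a protein known from mice with skeletal defects for its role in the translation of Hox mRNAs. Rpl38 had 1175 FPKM in spleen and 2000 in lung (1.70-fold). Rpl31 followed with 196 and 333 FPKM (1.70-fold) and Rpl41 with 2832 and 4615 (1.63-fold).

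The lowest ratios belonged to proteins at the functional core of the large subunit. Rpl4, which lines the tunnel through which the new chain leaves, had 1254 FPKM in spleen and 1274 in lung (1.02-fold). Rpl3, which reaches to the peptidyl transferase centre, was at 1195 and 1252 FPKM (1.05-fold), and Rpl12, at the base of the stalk, at 1109 and 1172 (1.06-fold). After rescaling to TPM these 3 genes were lower in lung, with log2 ratios of -0.41, -0.36 and -0.35. The 3 genes of the P stalk, which brings translation factors to the ribosome, had log2 ratios from 0.29 (Rplp0) to 0.63 (Rplp2). Rpl5 and Rpl11, which bind 5S rRNA and, when free, the p53 regulator Mdm2, were 1.12-fold and 1.17-fold higher. In the small subunit, Rpsa was among the lowest log2 ratios (0.16), and among the standard genes the highest after Rps27 was 0.71 for Rps12, at 545 FPKM in spleen and 893 in lung.

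**Figure D3:**
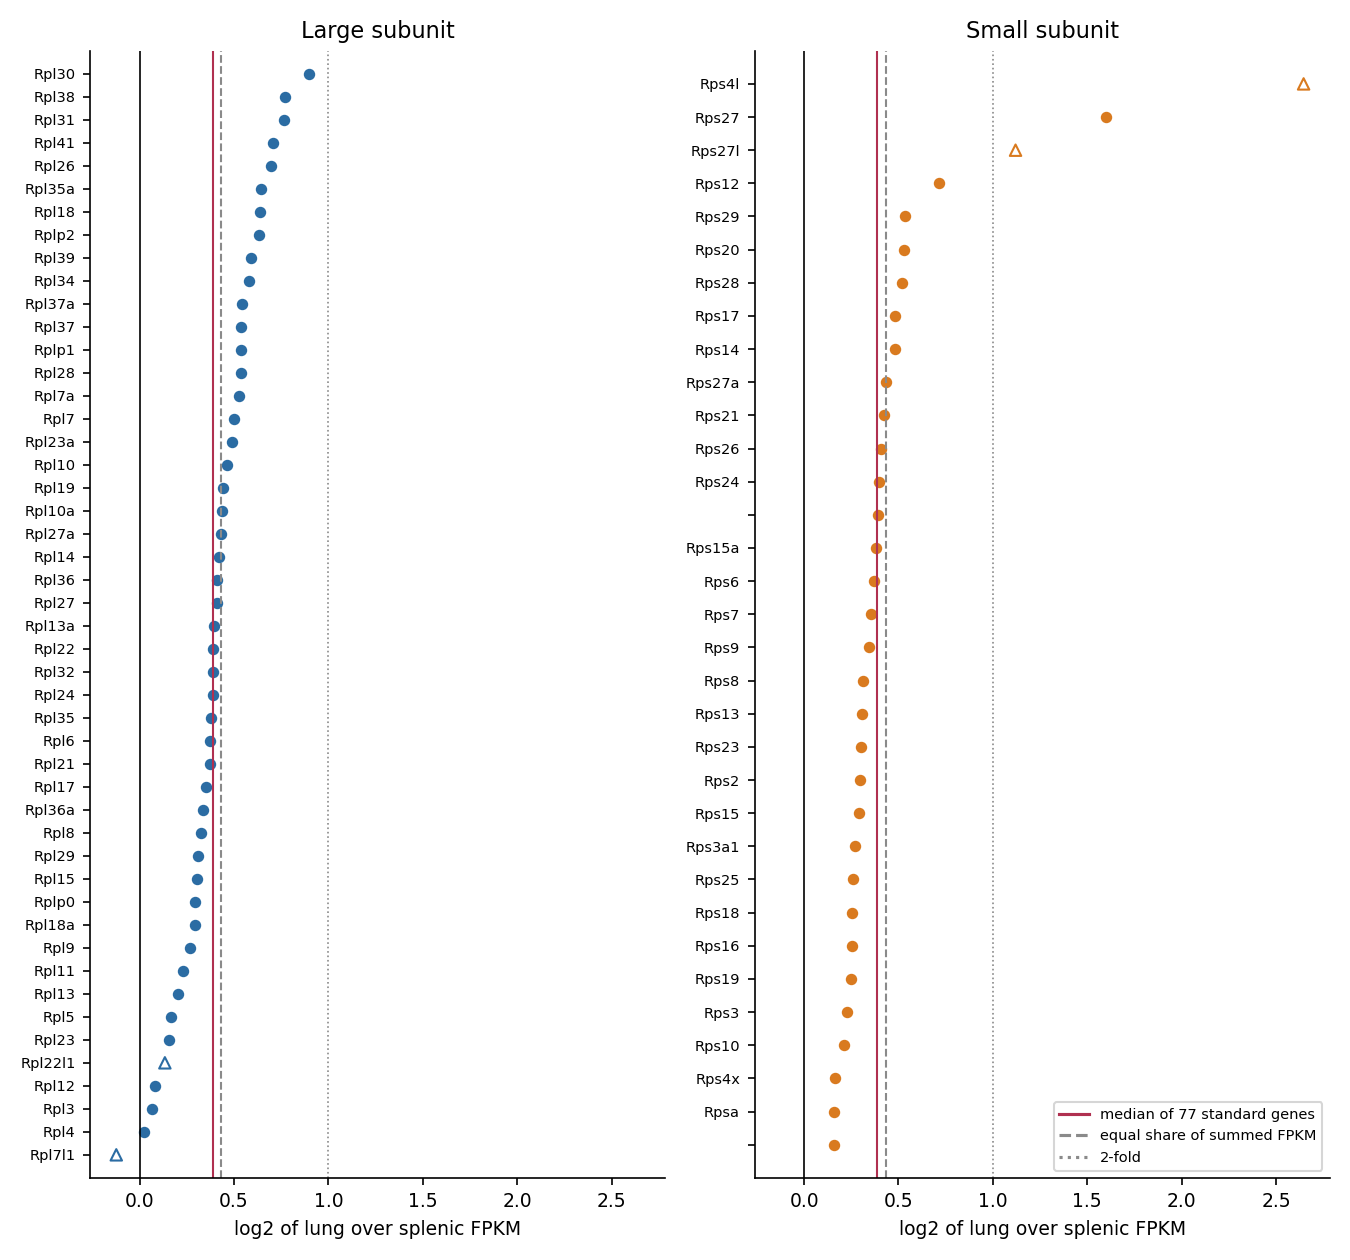
Log2 ratio of lung to splenic FPKM (x axis) of the 81 tested members in order of size, for the large subunit (left) and the small subunit (right), with circles for standard genes and open triangles for paralogs. Every circle is to the right of 0, and 66 of the 77 lie within 0.25 of the median (0.39, solid line); 2 points are drawn without a gene name, and the dashed line marks an equal share of summed FPKM (0.43) and the dotted line 2-fold.

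Short genes had higher ratios than long ones. Across the 77 standard genes, whose coding sequences span 78 to 1260 nt, the Spearman rho of log2 ratio and coding length was -0.59, and it was -0.54 with the copies added. The 9 genes under 300 nt had a median log2 ratio of 0.54, the 15 of 300 to 400 nt 0.53, the 23 of 400 to 500 nt 0.39, the 16 of 500 to 700 nt 0.35 and the 14 longer ones 0.28. A rank correlation in the same direction was present outside the cytosolic ribosome. The Spearman rho was -0.36 across 77 mitochondrial ribosomal protein genes. It was -0.28 across 724 other genes with a mean of at least 100 FPKM and a coding length in the same range. Of these, the shortest had a median log2 ratio of 0.72 and the longest 0.26. GC content of the coding sequence had a rho of -0.088 with the members' ratios. Genes are not independent replicates, and all values come from the same 2 libraries. The part of RNA quality and of the assumed fragment length in the relation to coding length was not tested.

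**Figure D4:**
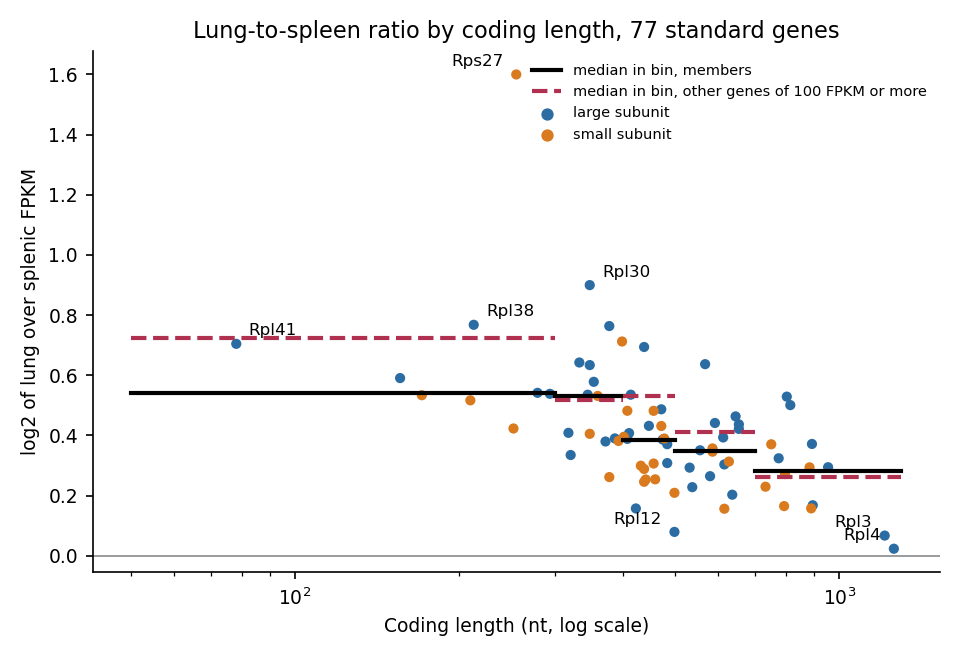
Log2 ratio of lung to splenic FPKM (y axis) against coding length in nt (x axis, log scale) for the 77 standard genes, with the median in 5 length bins for the members (solid lines) and for other genes with a mean of at least 100 FPKM (dashed lines). The members' bin medians go down from 0.54 to 0.28, and those of other genes from 0.72 to 0.26.

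Of the 7 relatives, 2 were over 2-fold higher in lung. Rps27l, a target of p53 whose protein differs little from that of Rps27, had 211 FPKM in spleen and 459 in lung (2.17-fold, with a 95% Clopper-Pearson interval of 1.99 to 2.37 on the estimated reads, which covers counting error only). Unlike Rps27rt, Rps27l can be told apart from Rps27 by its sequence. Both coding sequences have 255 bases in the transcripts shown here, from chr3:90212522-90213651 (minus strand) and chr9:66946086-66949516 (plus strand), and the 61 bases in capitals differ, which left an identity of 76.1%.
Rps27: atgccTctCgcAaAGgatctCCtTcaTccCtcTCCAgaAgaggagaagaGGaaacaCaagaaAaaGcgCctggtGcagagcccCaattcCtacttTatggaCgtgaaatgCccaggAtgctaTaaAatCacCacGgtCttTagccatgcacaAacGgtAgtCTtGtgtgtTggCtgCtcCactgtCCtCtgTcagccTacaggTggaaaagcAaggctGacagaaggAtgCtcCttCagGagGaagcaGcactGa
Rps27l: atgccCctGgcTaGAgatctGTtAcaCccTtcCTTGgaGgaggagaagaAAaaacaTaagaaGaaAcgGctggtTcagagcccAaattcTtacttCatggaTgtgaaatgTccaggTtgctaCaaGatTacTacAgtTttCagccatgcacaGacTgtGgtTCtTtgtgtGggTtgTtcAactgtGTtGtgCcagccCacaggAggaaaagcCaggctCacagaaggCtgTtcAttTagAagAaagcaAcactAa

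For Rps4l (chr6:148354656-148355598, plus strand), the first of 2 GENCODE transcripts is annotated as a processed transcript. No protein-coding transcript tied to a RefSeq mRNA record was found for it. Rps4l had 3.69 FPKM in spleen and 23.1 in lung, or 6.26-fold higher. It rested on about 28.1 and 199 reads, which gave an interval of 4.20 to 9.66. It shared no 75-base window with the coding sequence of its X-linked relative Rps4x, which was at 909 and 1020 FPKM (1.12-fold). The direction of both Rps27l and Rps4l was the same after rescaling to TPM, with log2 ratios of 0.69 and 2.21.

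The other relatives were low or close to equal. Rpl22l1, which can take the place of Rpl22, had 210 FPKM in spleen and 231 in lung (1.10-fold). On this scale it was above Rpl22 itself in both. Before division by length the order was the reverse, with about 749 and 933 estimated reads for Rpl22l1 and 1086 and 1616 for Rpl22. Rpl7l1 was the 1 tested member with a lower value in lung, at 47.7 and 43.8 FPKM (0.92-fold), whereas Rpl7 was at 1240 and 1754 (1.42-fold). Rpl3l, a gene of skeletal and heart muscle, and Rpl10l, a gene of the testis, were listed at 0 in both libraries. For Rpl3l, 3 reads would have given 0.291 FPKM in spleen and 0.256 in lung, and for Rpl10l 0.355 and 0.313. Rpl39l, also known from the testis, had 0.162 FPKM in spleen, about 1 read, and was listed at 0 in lung, where 3 reads would have given 0.427. The ubiquitous relatives of these genes, Rpl3, Rpl10 (958 and 1320 FPKM) and Rpl39 (1317 and 1983 FPKM), were among the abundant members.

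Ribosomal genes that the naming rule does not take in gave similar values. Fau, whose product holds a small-subunit protein behind a ubiquitin-like part, was at 704 and 1051 (a log2 ratio of 0.58). Gnb2l1, the gene of the signalling scaffold Rack1, was at 515 and 569 (1.10-fold), and Rpl36al at 477 and 559 (1.17-fold). Rps27a, a member whose product is fused to ubiquitin, was at 922 and 1244 FPKM (1.35-fold).

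The wider translation machinery varied more from gene to gene. Of 20 translation factors and other genes whose mRNAs begin with a pyrimidine tract, 13 were higher and 7 lower in lung, with a median log2 ratio of 0.13. Among all tested genes 51.5% were higher. Among those with a mean of at least 100 FPKM, which most of the 20 reached, 75.1% were higher. Btf3 (1.59-fold), Tpt1 (1158 and 1732 FPKM) and Naca (1.35-fold), of which Btf3 and Naca form the complex that meets the new chain at the tunnel exit, were highest. Eif4a2 (125 FPKM in spleen and 78.3 in lung), Hnrnpa1 (59.2 and 38.6) and Eif4b (46.8 and 37.2) were lowest. None of the 20 was past 2-fold, beside 17.8% higher and 15.5% lower by that fold among all tested genes. Mitochondrial ribosomal protein genes, which serve a separate ribosome, had a median of 0.28 but a wider interquartile range of 0.54, with 57 of 77 higher in lung, a share near the 75.1% of genes with a mean of at least 100 FPKM and above the 51.5% of all tested genes. They ran from Mrps22 (14.7 and 5.06 FPKM) and Mrpl44 (26.6 and 11.0) to Mrpl33 (245 and 562) and Mrpl34 (35.2 and 81.1).

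Genes for building ribosomes mostly had lower values in lung. Of 32 ribosome biogenesis genes, 23 were lower and 9 higher, beside 48.5% lower among all tested genes. After TPM scaling 30 of the 32 were lower, beside 67.3% of all tested genes. Their median log2 ratio on the FPKM scale was -0.30, beside 0.031 over all genes tested. On that scale 4 were over 2-fold lower, no larger a share than the 15.5% of all tested genes. These 4 were Tcof1, a factor of rRNA transcription (27.9 FPKM in spleen and 12.4 in lung), Rrn3, which brings RNA polymerase I to its promoter (17.5 and 5.86), and, outside the rule for named genes, Polr1b (9.54 and 3.25) and Rrp12 (7.81 and 0.103). Nop10, Mrto4 and Polr1d were highest, at 1.25-fold, 1.45-fold and 1.51-fold. Among 16 tested regulators of ribosomal protein synthesis 10 were lower in lung, beside 48.5% of all tested genes. Myc was at 80.3 and 38.0 FPKM, Larp1 at 26.1 and 17.7, and Gabpa, a factor that binds at ribosomal protein promoters, at 14.9 and 3.27. Higher values were found for Rheb (49.7 and 79.5), the activator of mTOR, the S6 kinase gene Rps6kb1 (10.9 and 16.5) and Eif4ebp2 (16.6 and 24.4). Mycn was listed at 0 in both.

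**Figure D5:**
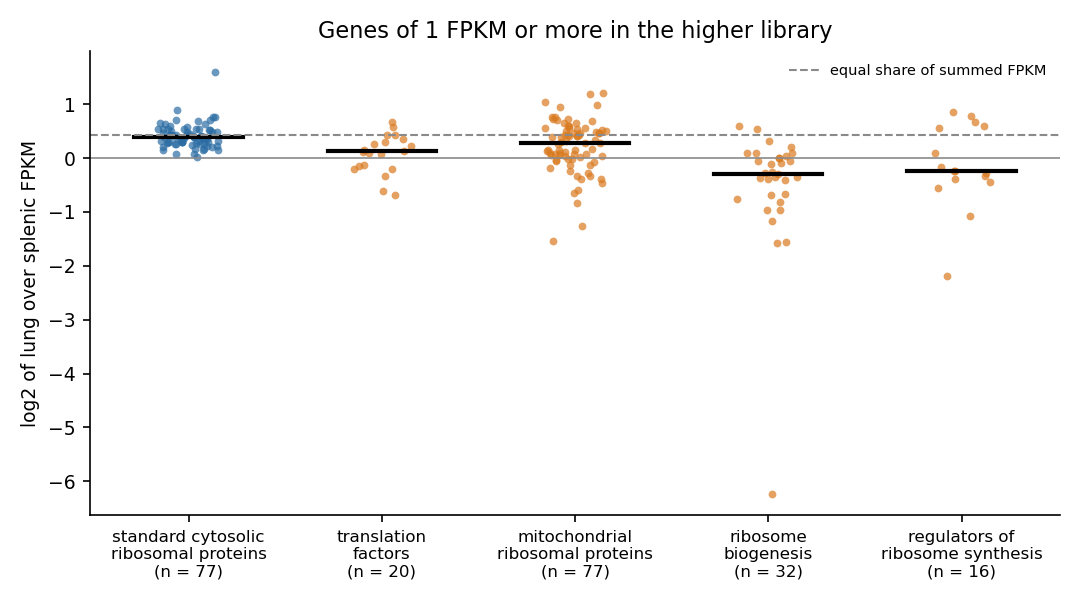
Log2 ratio of lung to splenic FPKM (y axis) of the standard cytosolic ribosomal protein genes and of 4 other gene lists (x axis), 1 point per gene that reached 1 FPKM in either library and a bar at the median. The cytosolic genes form the narrowest group, around 0.39, while the medians of the other lists go from 0.28 (mitochondrial ribosomal proteins) to -0.30 (ribosome biogenesis); the dashed line marks an equal share of summed FPKM.

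What the members share beyond their names was also looked for at their start sites. RefSeq promoter windows of 300 bases (GRCm38.p6, 250 before and 50 from the annotated first base) were at hand for 63 of the 84 members, as 75 windows. A C followed by at least 4 bases of C or T began exactly at the annotated first base in 13 of the 75 member windows (17.3%) and in 2.50% of all 32841 windows. Within 3 bases before to 5 bases after that base, such a run began in 37.3% of member windows and 14.5% of all. To show what this tract looks like, the 30 bases before and the 20 bases from the first base on are printed. They are given for 3 members with such a run in that range, in capitals, and 2 without. Of the 2 without, Rpl4 has a run of C and T farther before the annotated first base. Its GENCODE start (64173375) falls in that run, which is left in small letters. For Rpl41 the GENCODE start (128549305) lies outside the printed stretch, so a tract at that start is not shown. The places are chr3:90213629-90213678 (minus strand) for Rps27, chr11:114668550-114668599 (plus) for Rpl38, chr17:33955646-33955695 (minus) for Rps18, chr9:64173357-64173406 (plus) for Rpl4 and chr10:128549149-128549198 (minus) for Rpl41.
Rps27: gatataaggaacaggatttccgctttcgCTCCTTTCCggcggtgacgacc
Rpl38: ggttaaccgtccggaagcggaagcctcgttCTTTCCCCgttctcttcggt
Rps18: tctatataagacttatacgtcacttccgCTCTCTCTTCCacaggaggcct
Rpl4: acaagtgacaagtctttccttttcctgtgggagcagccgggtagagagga
Rpl41: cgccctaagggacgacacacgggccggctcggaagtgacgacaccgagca

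The tract has 9 bases in Rps27, 8 in Rpl38 and 11 in Rps18. Standard genes with and without a run in that range overlapped in their ratios. The medians were 0.41 (25 genes, 0.079 to 1.60) and 0.32 (32 genes, 0.024 to 0.71) on the log2 scale. The genes without include Rpl4, so this split depends on the annotated first base and does not separate genes by presence of a tract. Over the whole window and on both strands, CTTCCG, the core to which Ets factors such as Gabpa bind, was present in 45 of the 75 member windows (60.0%) and in 16.9% of all windows. GGGCGG, the box of Sp1, was present in 60.0% and 35.7%, CCAAT in 29.3% and 37.4%, TATAAA in 9.33% and 13.6%, and the E-box CACGTG of Myc in 10.7% and 7.15%. Motifs were counted separately where their letters overlapped. A match describes the letters of the window and is not a site at which binding was measured.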

How the data were processed

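The deposited values are FPKM per gene symbol, 1 file per library. The authors made cDNA with SMART-Seq HT, which does not mark strand or molecules, aligned single-end reads of 75 bases with TopHat 2.1.1 and Bowtie2 2.2.8 to the mm10 assembly, and computed the FPKM with Cuffdiff 2.2.1. The gene annotation and the options of Cuffdiff, including its treatment of reads that map to several places, are not given in the sources used here.

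Values under 0.1 FPKM were set to 0.1 before the log2 ratio of lung to spleen was taken, and genes that reached 1 FPKM in either library were tested against a 2-fold difference. Members and lists were chosen with earlier results of these data known. Named members were the 5 highest and 5 lowest ratios at 10 FPKM or more, the 5 highest levels per library, members past 2-fold, the 5 nearest the median, those under 10 FPKM and the paralog pairs, and of other lists the 3 highest and 3 lowest ratios. Other members are named where a copy, a subunit or a level sets them apart, after their values had been seen. Some genes and a sequence that these rules would name are not reported here.

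The value of 1 read was taken from the steps of FPKM times effective length of GENCODE M21 transcripts (fragment mean 200, SD 80). At 1 kb it was 0.0964 FPKM in spleen and 0.0849 in lung, and 72.9% and 75.0% of low genes came within 0.1 of a whole read, so read numbers are approximate. Intervals and limits cover counting error only. Coding windows of 75 bases were compared with all GENCODE transcripts on both strands. The steps were tested on simulated data. Computation ran in Python 3.11.15 (pandas 2.3.3, numpy 2.4.6, matplotlib 3.10.9, scipy 1.17.1).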

Additional observations from a re-analysis of the deposited data

How the results depend on the processing

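Rescaling to TPM turned the members' median log2 ratio from 0.39 to -0.043. It was 0.38 with equal upper quartiles, 0.36 with a median ratio of 1 over tested genes, 0.38 with no filter on low values and 0.38 with near-identical copies added. The number of members over 2-fold higher in lung was 3, against 1 with the paralogs left out, 13 over 1.5-fold and 1 over 4-fold. It was 2 after TPM scaling and 2 with copies added, and no setting put a member over 2-fold lower. The members' share of summed FPKM went from 13.6% in spleen to 14.8% without small RNA, 13.9% with pseudogene rows, 18.2% without the 100 highest other rows and 15.4% with copies, and in lung from 13.3% to 14.3%, 13.6%, 19.6% and 15.0%. Of 24 named members, 23 were higher in lung as reported and 11 after TPM scaling. No paired analysis was possible because each tissue has 1 library, and for the same reason no replicate could be left out. The depth leaves the members at 0 with limits of 0.256 to 0.427 FPKM.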
